A study of Homo sapiens with 5 samples.

Results

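The epithelial-mesenchymal transition genes followed here are 10 genes chosen by symbol: VIM, the classical cadherins CDH1, CDH2 and CDH3, and the transcription factors ZEB1, ZEB2, SNAI1, SNAI2, TWIST1 and PRRX1. Each had 1 array feature that carries its symbol alone, so 10 of the 14232 genes with such a feature are described. Their levels were read on 5 Affymetrix exon arrays of 2 human lung cancer lines. A549 is an established lung adenocarcinoma line in which the kinase LKB1 is inactivated by mutation and which has, per the submitters, a raised level of NEDD9, a scaffold protein of focal adhesions. It was hybridised as a control (n = 1) and after NEDD9 knockdown with hairpin 1 and with hairpin 2, which are different constructs (n = 2). CRL-5907, a line with wild-type LKB1 and low NEDD9 per the submitters, contributed 1 control array (n = 1) and 1 array of cells that overexpress NEDD9 (n = 1). The labels name no construct in the control cells, and they do not say whether the cells are clones or pools or whether the arrays come from separate cultures. The comparisons ask whether lowering NEDD9 in one line, or raising it in the other, is accompanied by a different level of these genes.

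In an epithelial-mesenchymal transition, epithelial cells loosen their junctions and take on the shape and motility of mesenchymal cells. E-cadherin (CDH1) holds epithelial cells together, and its replacement by N-cadherin (CDH2) is known as the cadherin switch. Factors of the ZEB, SNAI and TWIST families bind E-box sequences and repress epithelial genes such as CDH1, and vimentin (VIM), the intermediate filament of mesenchymal cells, is a common marker of the mesenchymal state.

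All values are log2 expression levels of single arrays, so their precision is limited by the number of arrays. Levels of different genes are not compared, since each feature has its own probes. A level under the median of the named features of its array (5.69 to 5.85) may be background alone, and differences measured from it may understate the real ones. NEDD9 followed the labels, with levels of 8.94, 8.35 and 8.52 in A549 (control, hairpin 1, hairpin 2) and 4.66 and 9.49 in CRL-5907 (control, overexpression). The hairpin differences of NEDD9 were -0.59 and -0.41, and only hairpin 1 reached 1.5-fold. Of 9 measured markers of epithelial lung cancer lines, 7 lay above the array median on all 5 arrays, among them KRT8, KRT18 and CDH1, and the surfactant genes SFTPB and SFTPC lay below it on all 5. Markers of other cell types were mostly below the median on all arrays (8 of 9 for fibroblasts, 6 of 9 for leukocytes and 7 of 8 for endothelium), and the leukocyte antigen PTPRC had the same level of 1.72 on each. The log2 summed level of the fibroblast markers ran from 7.37 to 7.46 in A549 and from 7.43 to 7.5 in CRL-5907, and that of the endothelial markers from 7.56 to 7.68 and from 7.61 to 7.62. The leukocyte sum was 9.93 on the A549 control and spanned 0.13 over the A549 arrays, and it ran from 9.48 to 9.56 in CRL-5907. Within that list LYZ, which encodes lysozyme, was at 3.55 on the A549 control and at 5.55 and 5.34 with the hairpins, all below the medians, and CD14, a monocyte receptor, was at 6.47 on that control and at 6.08 and 5.63 with the hairpins. Their part in any result was not tested.

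**Figure D1:**
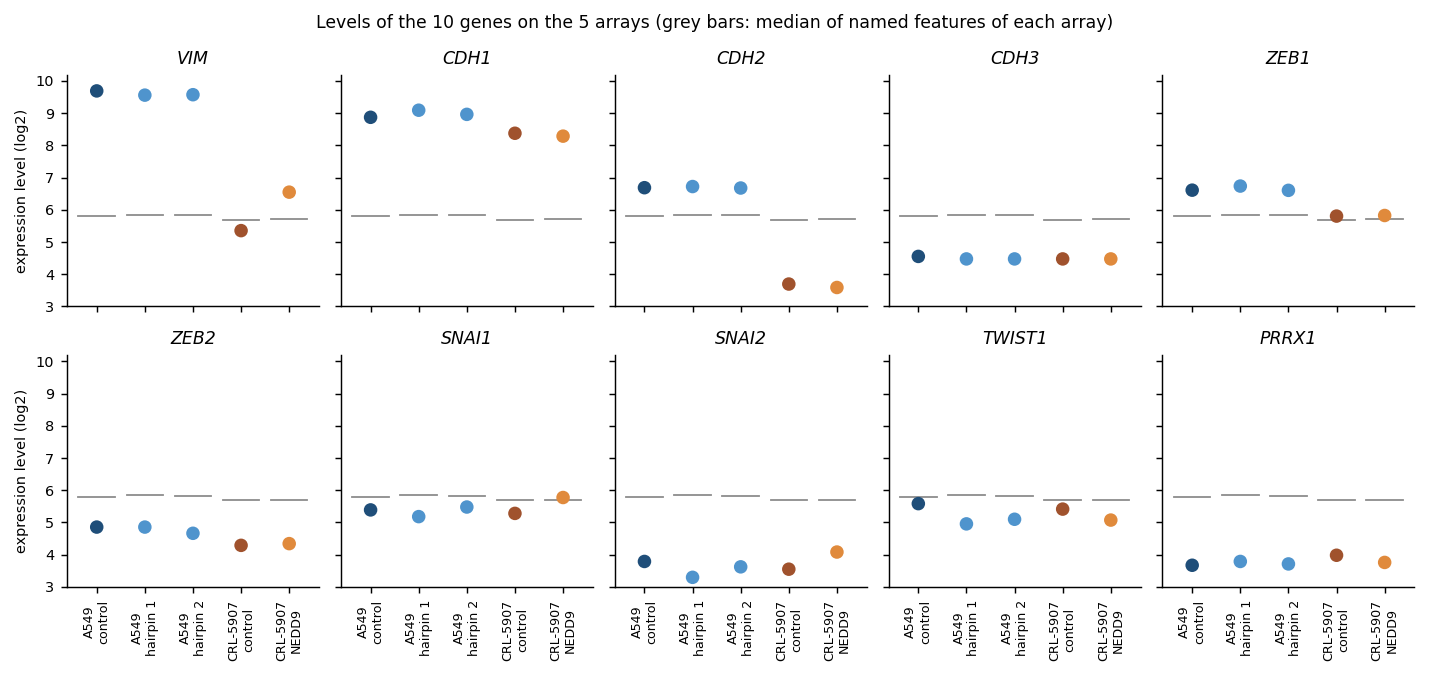
Log2 expression level (vertical axis) of each of the 10 genes on each of the 5 arrays, 1 point per array, with a grey bar at the median of the named features of that array. VIM and CDH2 separate the A549 arrays from the CRL-5907 arrays, CDH1 lies above the bar on all 5 arrays, and CDH3, ZEB2, SNAI2, TWIST1 and PRRX1 lie below it on all 5.

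The promoters of the 2 genes that differed most between the lines, VIM and CDH2, and that of ZEB1, an E-box-binding factor whose level also differed, are printed so that the E-boxes can be looked for. The RefSeq table (GRCh38.p14) held promoter windows for 5 of the 10 genes: VIM, CDH2, ZEB1, ZEB2 and PRRX1. For CDH2 and ZEB1, which have 2 and 7 windows, the one at the annotated start of the gene was taken. Each sequence is the 250 bases before that start, 5′ to 3′ on the strand of the gene, at chr10:17227991-17228240 (plus strand) for VIM, chr18:28177131-28177380 (minus strand) for CDH2 and chr10:31318167-31318416 (plus strand) for ZEB1. Capitals mark CANNTG, the general E-box, and GGGCGG or its reverse complement CCGCCC, the GC box.
VIM: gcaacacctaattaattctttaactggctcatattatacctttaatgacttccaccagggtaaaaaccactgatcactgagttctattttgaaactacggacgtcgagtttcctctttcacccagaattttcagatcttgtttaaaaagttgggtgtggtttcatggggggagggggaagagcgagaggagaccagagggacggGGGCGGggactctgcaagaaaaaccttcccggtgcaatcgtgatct
CDH2: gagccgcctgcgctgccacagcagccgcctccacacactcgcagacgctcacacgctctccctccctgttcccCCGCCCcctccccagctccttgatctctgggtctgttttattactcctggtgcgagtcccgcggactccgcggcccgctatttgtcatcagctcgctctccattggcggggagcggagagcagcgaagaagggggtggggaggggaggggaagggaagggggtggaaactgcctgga
ZEB1: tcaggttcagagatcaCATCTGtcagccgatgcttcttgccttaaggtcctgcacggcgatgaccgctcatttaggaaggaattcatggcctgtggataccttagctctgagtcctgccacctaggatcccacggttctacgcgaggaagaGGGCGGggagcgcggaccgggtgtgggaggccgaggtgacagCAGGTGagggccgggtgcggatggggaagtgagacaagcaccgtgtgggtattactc
The windows of VIM and CDH2 hold no CANNTG on either strand, and each holds 1 GC box, as GGGCGG starting 46 bases before the start of VIM and as CCGCCC starting 177 bases before that of CDH2. The ZEB1 window holds CATCTG starting 234 bases and CAGGTG starting 57 bases before the start, and a GC box starting 99 bases before it. CAGGTG, which reads CACCTG on the other strand and is a special case of CANNTG, is the E-box form that ZEB and SNAI proteins prefer. Over all 35116 windows of this length in the table, 17.5% hold CAGGTG or CACCTG, 61.8% hold CANNTG and 42.6% hold a GC box. A match describes the letters and is not a measured binding site, and a window without one says nothing about the factor.

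VIM was the member with the largest differences, both between the lines and with overexpression. Its level was 9.69 on the A549 control, 9.56 with hairpin 1, 9.57 with hairpin 2, 5.35 on the CRL-5907 control and 6.55 with NEDD9 overexpression. The A549 arrays lay far above both CRL-5907 arrays, and in CRL-5907 the overexpression array was the higher one and the only one above its array median. The overexpression difference was 1.19 on the log2 scale, or 2.29-fold, and ranked 22 among the differences of the 7410 genes above the level filter, counted from the highest. As a yardstick, 95% of genes of like level differed by at most 0.34 between the 2 hairpin arrays, a spread that includes real differences between the hairpins. It was taken within A549 and does not measure the spread between CRL-5907 arrays. The log2 gap between the control arrays was 4.34 (20.2-fold), and the A549 control was 8.84-fold above the overexpressing cells. The control value in CRL-5907 was below its array median, so the 2.29-fold and 20.2-fold differences against it may understate the real ones. VIM passed the level filter only through the overexpression array, where it was the higher. The rank therefore only describes the value as measured. An array reads the RNA of the whole culture, and more vimentin RNA in every cell cannot be told apart from more cells that make it. With knockdown VIM was at -0.13 and -0.12 (mean -0.12 ± 0.01, SD, n = 2), inside the yardstick of 0.27 at its level in A549.

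Of CDH1, CDH2 and CDH3, only CDH1 was above the median on every array, and only CDH2 differed by 2-fold or more between the lines. E-cadherin's gene CDH1 was at 8.87 on the A549 control, 9.09 and 8.96 with hairpins 1 and 2, 8.38 on the CRL-5907 control and 8.29 with overexpression. It was thus higher, not lower, on the A549 arrays, by 0.50 between the controls (1.41-fold), where the yardstick was 0.32. The yardstick is a spread within A549 and does not measure that between lines. Among the 7716 genes above the filter in the comparison of lines, CDH1 ranked 1780, counted from the highest. Its knockdown differences of 0.22 and 0.09 (mean 0.16 ± 0.09, SD, n = 2) and its overexpression difference of -0.09 stayed inside the yardsticks of 0.32 and 0.31.

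N-cadherin's gene CDH2 was at 6.69, 6.72 and 6.68 on the A549 control, hairpin 1 and hairpin 2 arrays, and at 3.69 and 3.59 on the CRL-5907 control and overexpression arrays. The 3 A549 values spanned 0.05 and did not overlap with those of CRL-5907, which lay below the array medians. The difference between the controls was 2.99, or 7.95-fold as measured, from a CRL-5907 value that may be background alone. Knockdown differences were 0.04 and -0.01, and overexpression gave -0.11. A549 therefore carried CDH1 and CDH2 transcripts together on all 3 of its arrays, while on both CRL-5907 arrays CDH1 alone of the pair was above the median.

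P-cadherin's gene CDH3 was at 4.55 on the A549 control and at exactly 4.47 on the other 4 arrays, all below the medians. The normalisation by robust multi-array averaging (RMA) can return equal values on several arrays, and the overexpression difference of 0.00 does not show that CDH3 was unchanged.

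Among the transcription factors, ZEB1 alone was above the median on all 5 arrays. This zinc finger repressor of CDH1 was at 6.61, 6.74 and 6.60 on the A549 arrays (control, hairpin 1, hairpin 2), and at 5.80 and 5.82 on the CRL-5907 control and overexpression arrays. The A549 values lay above the CRL-5907 values without overlap, by 0.81 between the controls (1.75-fold), which is past the yardstick of 0.40 and short of 2-fold. That yardstick is a spread within A549, and among the 7716 genes above the filter between lines the difference ranked 1045, counted from the highest. The hairpin differences of 0.13 and -0.01 and the overexpression difference of 0.02 were inside the yardsticks of 0.35 and 0.34. Its relative ZEB2 was at 4.86, 4.86 and 4.66 in A549 and at 4.29 and 4.34 in CRL-5907, in the same array order and below the medians throughout. The ZEB2 values of the A549 control and hairpin 1 arrays were exactly equal.

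The SNAI factors are zinc finger repressors that act early in the transition, and neither passed 1.5-fold with overexpression. SNAI1 was at 5.39, 5.18 and 5.48 on the A549 arrays in the same order, 5.28 on the CRL-5907 control and 5.77 with overexpression, the only array on which it lay above the median. Its overexpression difference of 0.49 (1.41-fold) exceeded the yardstick of 0.41 at that level, which is a spread within A549 and not within CRL-5907. The difference ranked 394 of 7410, but SNAI1 passed the filter only through the overexpression array, so the rank only describes it. Its hairpin differences had opposite signs, -0.21 and 0.09. SNAI2 was at 3.79, 3.29 and 3.62 in A549, 3.55 on the CRL-5907 control and 4.08 with overexpression, all below the medians. Its difference of 0.53 with overexpression and those of -0.49 and -0.17 with the hairpins stayed inside the yardstick of 0.57.

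TWIST1, a basic helix-loop-helix factor, was lower than the control on every manipulated array. It was at 5.58 on the A549 control, 4.95 with hairpin 1 and 5.10 with hairpin 2, and at 5.41 on the CRL-5907 control and 5.07 with overexpression. In each line the control array was the highest, but all 5 values lay below the medians. The knockdown differences of -0.63 and -0.49 (mean -0.56 ± 0.10, SD, n = 2) were past the yardstick of 0.45, and hairpin 1 alone passed 1.5-fold. Both hairpins are set against the same control array, so a deviation of that array would enter both differences, and the SD leaves out its error. The overexpression difference of -0.34 was inside the yardstick of 0.45. The TWIST1 differences thus had the same sign on all 3 manipulated arrays. PRRX1, a homeobox factor of the mesoderm, was at 3.67, 3.79 and 3.71 in A549 and at 3.98 and 3.76 in CRL-5907, and none of its differences passed the yardstick of 0.57.

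**Figure D2:**
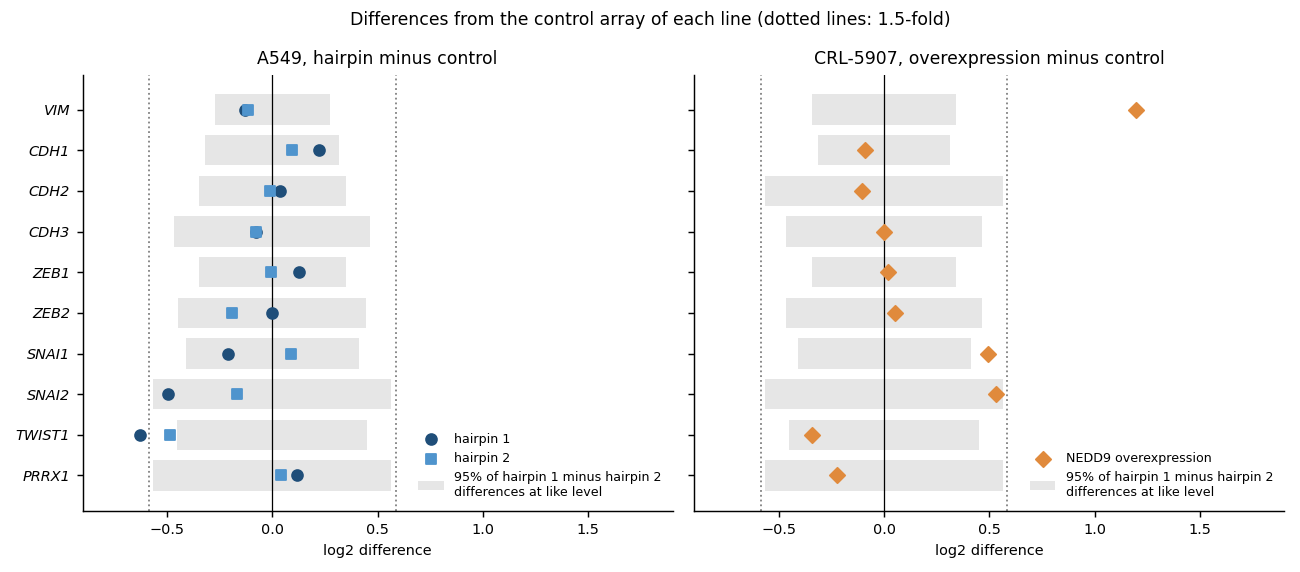
Log2 difference (horizontal axis) of each gene from the control array of its line, with both hairpins in A549 on the left and NEDD9 overexpression in CRL-5907 on the right; grey bars hold 95% of the differences between the 2 hairpin arrays in genes of like level, and dotted lines mark 1.5-fold. VIM with overexpression (1.19) lies far outside its bar, SNAI1 with overexpression (0.49) and TWIST1 with both hairpins (-0.63 and -0.49) lie outside theirs, and the other points lie inside. The bars of both panels come from A549 and do not measure the spread between CRL-5907 arrays.

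With knockdown, 0 of the 4 members above the level filter (VIM, CDH1, CDH2 and ZEB1) differed by 1.5-fold or more in the same direction with both hairpins. NEDD9 did not pass that rule either, as given above. Over all 7485 genes above the filter 0.708% were higher and 0.134% lower by that rule (53 and 10 genes, or 40 and 18 after a further quantile normalization). limma, fitted over all these genes with 1 residual degree of freedom and Benjamini-Hochberg adjustment, gave adjusted p-values of 0.286 for VIM, 0.483 for CDH1, 0.905 for CDH2 and 0.740 for ZEB1. It called 0 of the 7485 genes at an adjusted p under 0.05 (1309 at an unadjusted p under 0.05), and NEDD9 itself had an adjusted p of 0.310. In a fit without the filter TWIST1 had a difference of -0.56 ± 0.10 (SE) and an adjusted p of 0.322. Over all 10 members the median difference was -0.04 with each hairpin, against 0.02 and 0.00 over all genes, with 2 members (CDH1 and PRRX1) higher and 4 (VIM, CDH3, SNAI2 and TWIST1) lower with both.

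With overexpression 1 of the 4 members above the filter (VIM, CDH1, ZEB1 and SNAI1) was at least 1.5-fold higher and 0 were lower, against 3.5% higher and 0.85% lower among the 7410 genes above the filter (259 and 63 genes, or 188 and 111 after a further quantile normalization). VIM and SNAI1 passed the filter only through the overexpression array, where they were the higher, so this count only describes them. The median over the 10 members was 0.01, with 5 higher, 4 lower and 1 equal, and the median over all genes was 0.00. With 1 array in each condition there is no test and no replicate check.

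Between the control arrays 2 of the 4 members above the filter (VIM and CDH2) were at least 2-fold higher in A549 and 0 were lower, against 9.88% higher and 5.0% lower among 7716 genes. Both passed the filter only through the A549 array, and with their CRL-5907 values below the median they could only be counted as higher there, so this count also only describes them. All members but PRRX1 had positive differences, with a median of 0.37 against 0.01 over all genes. The lines were hybridised as 1 control array each, and line and array cannot be told apart in this comparison.

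The wider set of transition genes was read from lists chosen for their known roles. Among 40 mesenchymal products 35 were measured, and 18 of these lay below the medians on all 5 arrays, among them the fibroblast collagens COL1A2 and COL3A1, SPARC, LOX and MMP2. Of the 17 above the filter in the comparison of lines, 8 were at least 2-fold higher in A549 and 2 were lower. Over all genes above the filter the shares were 9.88% and 5.0%. FN1, AXL, LOXL2 and COL5A2 passed the filter only through the A549 array, and MMP14 and WNT5A only through the CRL-5907 array. They could only be counted in the direction seen, so these counts only describe them. FN1, which encodes fibronectin, was furthest apart, at 11.81 on the A549 control, 11.87 and 11.80 with the hairpins, 4.41 on the CRL-5907 control and 4.69 with overexpression. The difference of 7.40 is 169-fold as measured, from a CRL-5907 value below its array median. The manipulated arrays stayed close to their own controls. The receptor tyrosine kinase AXL (3.88), the lysyl oxidase LOXL2 (2.24) and the tropomyosin TPM2 (2.18) followed. The 2 lower genes were MMP14, a membrane-bound matrix metalloprotease (-1.27), and the WNT ligand WNT5A (-1.66). Of 18 other transition factors above the filter, 5 were at least 2-fold higher in A549 and 0 were lower, against the same shares of 9.88% and 5.0%. ID3 (3.84), ID2 (3.66), TBX3 (2.79) and ID1 (1.43) were furthest apart. ID3 and TBX3 passed the filter only through the A549 array, so this count also only describes them.

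**Figure D3:**
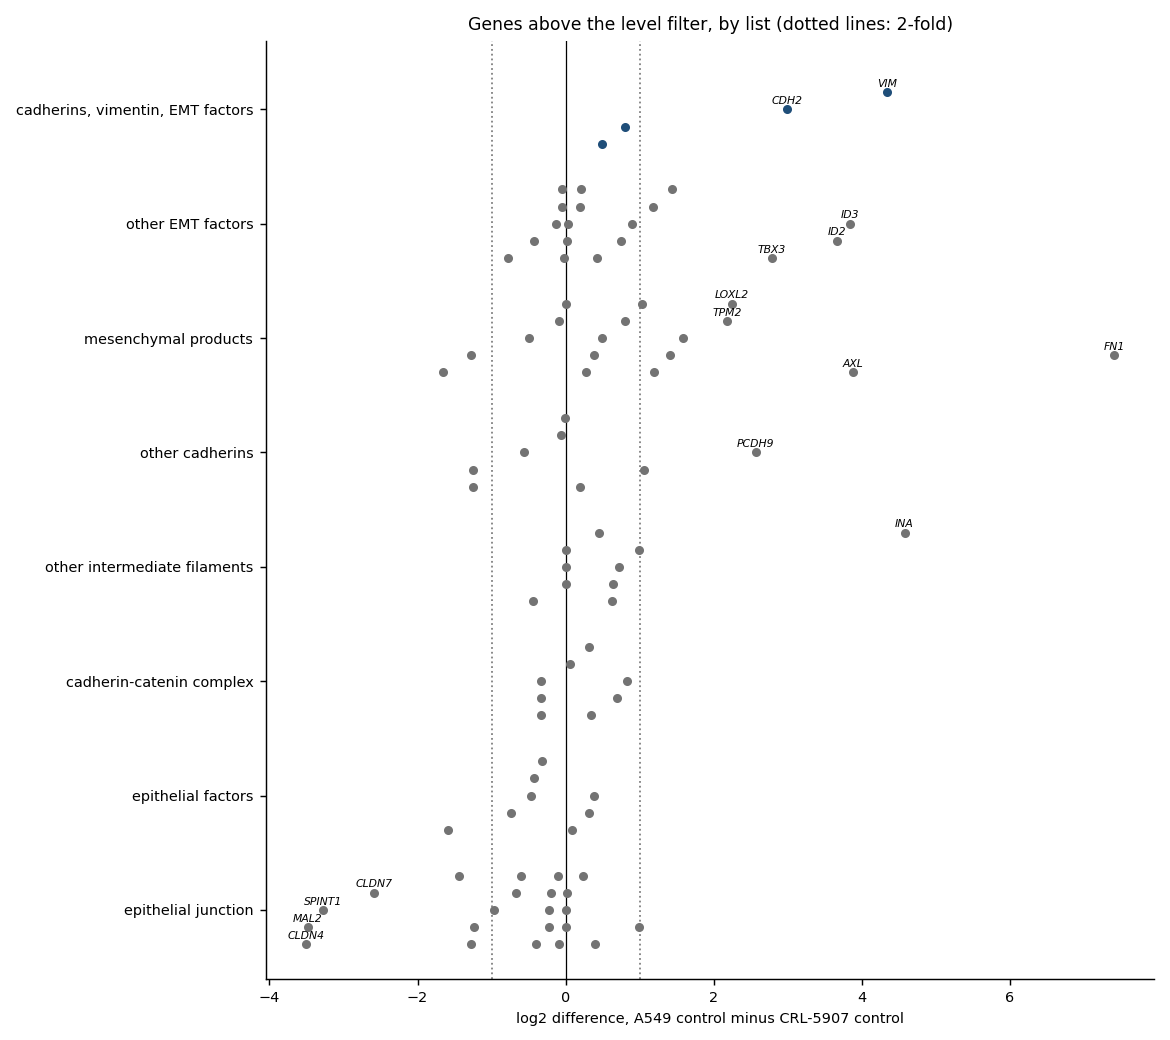
Log2 difference between the A549 and CRL-5907 control arrays (horizontal axis) for the genes above the level filter, 1 point per gene, grouped by list, with dotted lines at 2-fold. VIM, CDH2, FN1, AXL, INA, ID3 and ID2 lie far to the right, and the claudins CLDN4 and CLDN7 with SPINT1 and MAL2 lie far to the left. The genes of the cadherin-catenin complex all lie within 2-fold.

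Epithelial junction genes lay mostly the other way between the lines, although CDH1 did not. Of 22 above the filter 7 were at least 2-fold lower in A549 and 0 were higher, with a median of -0.24 over the 24 measured. Over all genes above the filter 5.0% were lower and 9.88% higher. CLDN4, CLDN7 and ST14 passed the filter only through the CRL-5907 array and could only be counted as lower, so the count only describes them. The tight junction genes CLDN4 (-3.50) and CLDN7 (-2.59), the membrane trafficking gene MAL2 (-3.48) and the protease inhibitor SPINT1 (-3.28) were furthest apart. The epithelial adhesion gene EPCAM was at -1.44. Of 8 epithelial transcription factors above the filter 1, EHF, was at least 2-fold lower in A549, at 7.27 against 8.86. The splicing regulator ESRP1, which ZEB1 represses, was at 3.61 and 4.91, below both medians.

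The catenins tie cadherins to actin. Of the 8 genes of the cadherin-catenin complex above the filter (catenins, the related PKP4, nectins, vinculin and afadin) 0 differed by 2-fold between the lines or by 1.5-fold with either manipulation. CTNNB1, beta-catenin, was at 9.98 and 9.64 on the A549 and CRL-5907 controls, and CTNNA1, alpha-catenin, at 8.83 and 9.16. CTNNAL1, an alpha-catenin-like gene below the medians on all arrays, was at 4.49 on the CRL-5907 control and 5.12 with overexpression, a difference of 0.63. Among the other intermediate filaments, the neuronal filament INA was the only one of 10 above the filter to differ by 2-fold, at 7.94 and 3.37 on the A549 and CRL-5907 controls, and it was at 3.37 with overexpression as well. Of 8 other cadherin-family genes above the filter, PCDH9 (2.57) and FAT1 (1.06) were higher and FAT4 (-1.26) and DSC2 (-1.25) lower in A549. Over all genes above the filter 9.88% were at least 2-fold higher and 5.0% lower in A549. INA and PCDH9 passed the filter only through the A549 array, and FAT4 and DSC2 only through the CRL-5907 array, so these counts only describe them.

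With the manipulations few genes of these lists passed 1.5-fold. In A549, 1 of 14 mesenchymal products above the filter was at least 1.5-fold lower with both hairpins, and 0 were higher. It was LOXL2, at -1.25 and -0.74 (limma adjusted p = 0.36). Over all genes above the filter 0.134% were lower and 0.708% higher by that rule. Of the 35 measured, 15 were lower with both and 3 higher, but 18 of the 35 lay below the medians on all arrays. Their median differences were -0.09 and 0.00, against 0.02 and 0.00 over all genes, for which directions were not counted. None of the 16 other transition factors, the 7 epithelial factors or the 16 epithelial junction genes above the filter passed with both hairpins. The closest were ID3, an inhibitor of basic helix-loop-helix factors (0.50 and 0.45), FOXA1, a forkhead factor of endodermal epithelia (0.44 and 0.34), and CLDN3 (-0.40 and -0.40). For CLDN3 the 4 arrays other than the A549 control had 1 common value, 7.12, so its difference rests on that control array.

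In CRL-5907, LOXL2 was the only one of 14 mesenchymal products above the filter to pass 1.5-fold (5.54 on the control, 6.25 with overexpression). Over all genes above the filter 3.5% were higher and 0.85% lower by that rule. LOXL2 passed the filter only through the overexpression array, so it could only be counted as higher. TNC, below the medians on both arrays, was at 4.18 on the control and 4.96 with overexpression, a difference of 0.78. MSN, the membrane linker moesin, was at 0.46, and CCN2 and the actin-binding CALD1 were at -0.39 and -0.38. The large cadherin FAT1 passed at 0.73, the polarity scaffold PATJ at 0.66 and the tight junction gene CLDN7 at -0.59. Of 15 other transition factors above the filter 0 passed, with ID2 at 0.53, and of 7 epithelial factors 0 passed, with EHF at 0.53. Of the 9 other intermediate filaments above the filter 0 passed 1.5-fold, and the median over the 14 measured was 0.03. FN1 differed by 0.28, below the array median on both CRL-5907 arrays.

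**Figure D4:**
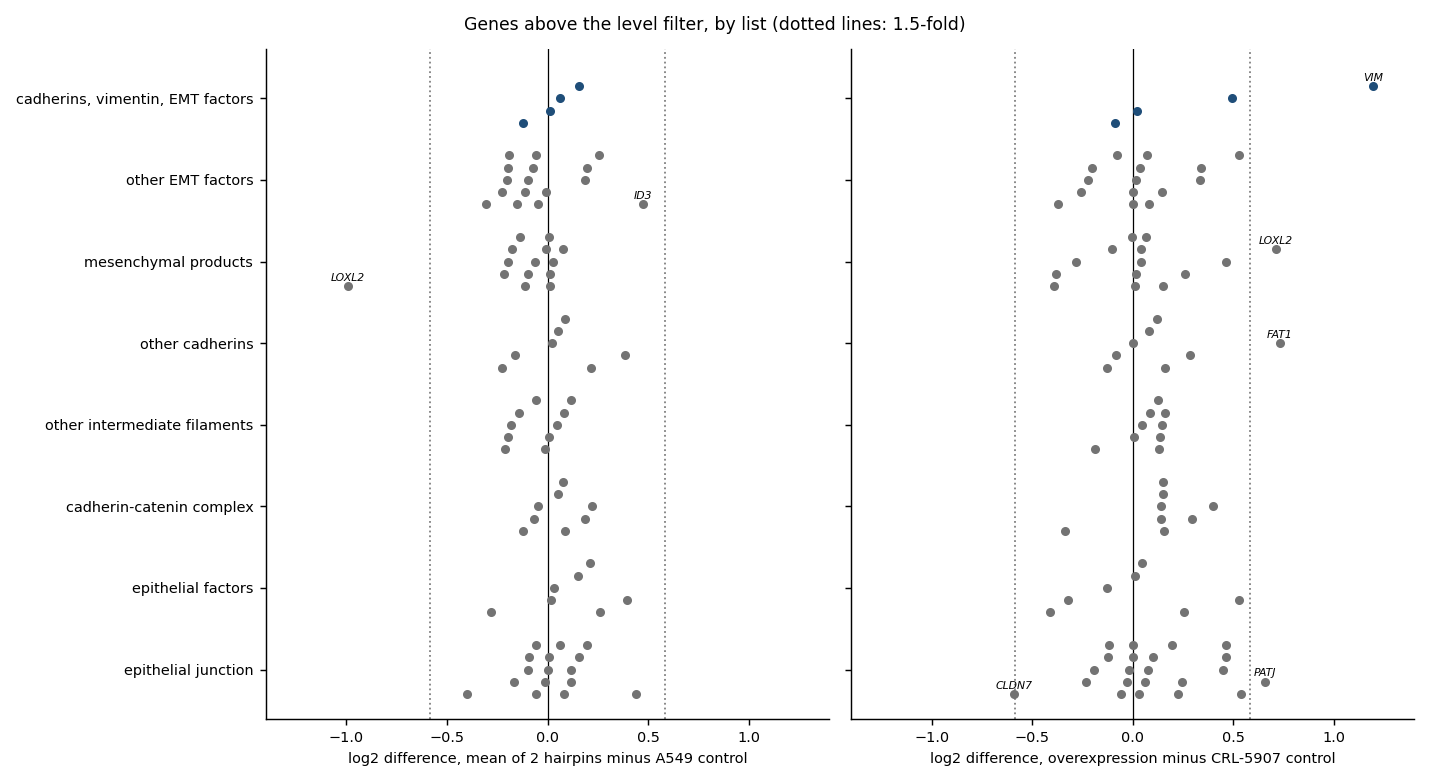
Log2 difference from the control array (horizontal axis), as the mean of 2 hairpins in A549 on the left and with NEDD9 overexpression in CRL-5907 on the right, for the genes above the level filter grouped by list, with dotted lines at 1.5-fold. LOXL2 lies outside the lines on both sides, to the left with knockdown and to the right with overexpression. VIM, FAT1 and PATJ lie outside them on the right panel alone, and CLDN7, at -0.59 on the right, is not drawn on the left, where it was below the filter (-0.63 and -0.56 with the hairpins).

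The genes most like each member were found by the Euclidean distance between the 5 array values after subtraction of each gene's own mean, among 8038 other genes above the median on at least 1 array. With 5 arrays of 2 lines this measure is governed by the difference between the lines wherever that is large. VIM was closest to the chemokine CCL2 (distance 0.36), the transporter SLC17A3 (0.40) and the metalloprotease MMP7 (0.46), which were higher with overexpression by 0.78, 1.06 and 0.79 and higher in A549 by 4.04, 4.11 and 4.54. CDH2 was closest to TM4SF20 (0.10), CNKSR2 and ST3GAL5 (both 0.21). CDH1 was closest to HSD17B4 (0.02), PPP1CB (0.05) and OS9 (0.07), and ZEB1 to SSR4 (0.03), TIMM22 (0.04) and LDB1 (0.05). The neighbours of ZEB1 were higher in A549 by 0.84, 0.78 and 0.78. SNAI1 had PHF13 (0.17), OTUD7B and APOLD1 (both 0.18) nearest.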

How the data were processed

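Gene expression was measured on 1 exon array per sample. The table deposited by the authors holds log2 levels for 22011 features. Per the submitters' processing notes it was made with Affymetrix Power Tools and RMA (versions not given), which corrects background, normalises all arrays jointly and combines the probes of each feature. That the base is 2 was judged from the range of values (0.58 to 13.09), and detection against background was not given in the sources used here. Equal values occurred in 6.25% to 8.97% of features in any pair of arrays.

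The platform annotation named the features: 14432 had 1 symbol, 2408 had several and 5171 were unnamed here. They gave 14232 genes, the brightest feature being used for the 197 with several. Genes passed the level filter when their brightest array in a comparison exceeded the median of that array's named features. A gene was counted at 1.5-fold with both hairpins, at 1.5-fold with overexpression and at 2-fold between lines. The knockdown test was limma 3.58.1 under R 4.3.3 (lmFit, eBayes with a trend, Benjamini-Hochberg adjustment), whose error is the spread between hairpins and which supposes the same spread for the control. The fit and the counting were tested on simulated data. The yardstick is the 95th percentile of the absolute difference between the hairpin arrays in 20 bins of level. Samples were grouped by title; the description of the hairpin 2 array names another gene, NEDD10.

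The members and lists were chosen with earlier results of these data known. From each list, up to 4 genes furthest from control among those above the filter were named, and the 3 nearest genes of each member above a median; other list genes (such as COL1A2, MMP14, ESRP1, PCDH9, LYZ, CD14, CTNNAL1, FBXL14 and LATS2) were named after their values were seen, and the GC box was added after the sequences were read. Alternatives were centred arrays, a further quantile normalization, removal of the trend with level, the mean of a gene's features, other filters and folds, each hairpin left out, limma without a trend and limma on the A549 arrays alone.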

Additional observations from a re-analysis of the deposited data

How the results depend on the processing

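Every one of the 120 recomputed member differences (10 genes, 4 differences, 3 alternative normalisations) moved by less than the SD between the hairpin arrays at like level, by at most 0.13. Of these, 12 differed in sign from the main value, 6 of them where it was exactly 0, and none of these differences had passed a fold threshold. They include the hairpin 1 difference of CDH2, at 0.04 in the main setting and at -0.02, -0.07 and -0.07 under the 3 alternatives. VIM was higher with overexpression, and VIM and CDH2 higher in A549, under each of the 3. The mean of a gene's features could not change a member, since each has 1. A filter at the 75th percentile removed VIM from the overexpression comparison and CDH2 from that of the lines, which left 0 and 1 members counted. Over all genes, a further quantile normalization gave 18 lower with knockdown and 111 lower with overexpression, and removal of the trend with level 16 lower with knockdown. No filter gave 113 higher and 43 lower with knockdown and 413 and 192 with overexpression. The stricter filter gave 20 and 3, 151 and 34, and 498 higher between lines. At 2-fold there were 5 and 0 with knockdown and 52 and 6 with overexpression, and at 1.5-fold 1499 and 854 between lines. With 1 hairpin left out, 101 to 192 genes were higher and 36 to 40 lower with knockdown, where fewer arrays had to pass. Fewer or more genes tested, or another fold, account for the filter and fold counts by construction; for the normalisations the cause was not tested. limma called 0 genes under all 7 alternatives (lowest adjusted p from 0.101 to 0.322). No paired analysis was possible because the control groups hold 1 array each. Signal over background is unknown, which limits what can be said of the 5 members below the median on all arrays.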

Other observations

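Genes that act on the transition factors were also measured. Among cofactors that ZEB and SNAI proteins use to silence genes, 13 of 17 measured genes lay above the filter in A549 and 0 passed 1.5-fold with both hairpins. Of the 17, 11 were higher with both and 2 lower. Their medians were 0.12 and 0.07, against 0.02 and 0.00 over all genes and 0.10 and 0.04 over those above the filter. The Polycomb genes SUZ12 (0.63 and 0.38), EZH2 (0.28 and 0.34) and BMI1 (0.31 and 0.18) and the DNA methyltransferase DNMT1 (0.26 and 0.26) were furthest from control. DNMT1 had 1 common value, 7.06, on both hairpin arrays and the overexpression array, so its hairpin differences rest on the A549 control array. With overexpression 14 of the 17 were higher, with a median of 0.16 against 0.00 over all genes and 0.05 over those above the filter. EZH2 alone passed 1.5-fold, at 5.36 on the control and 6.03 with NEDD9, and it passed the filter only through the overexpression array. KDM1A, a histone demethylase that SNAI1 recruits, was at 0.43 with overexpression and was higher on the A549 than the CRL-5907 control by 1.13. Its levels of 7.27 on all 3 A549 arrays were exactly equal, which does not show that it was unchanged.

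Of 16 genes that act on the stability of SNAI proteins 9 were measured and 8 lay above the filter in each comparison. None passed 1.5-fold with both hairpins or with overexpression. PRKD1 (0.29, 0.28 and 0.26 with hairpin 1, hairpin 2 and overexpression), FBXO11 (0.30, 0.27 and 0.32) and GSK3B, the kinase that marks SNAI1 for degradation (0.20, 0.22 and 0.15), had positive differences on all 3 manipulated arrays, FBXL14 had negative ones (-0.04, -0.20 and -0.15), and LATS2 was at -0.09, -0.03 and 0.07. Over all genes above the filter the medians were 0.10, 0.04 and 0.05. FBXL5 was the only one of the 8 past 2-fold between the lines (-1.45, A549 minus CRL-5907). SNAI proteins themselves were not measured.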
